A study of Mus musculus with 16 samples.

Results

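Liver was compared with eWAT, the epididymal depot of white adipose tissue, in mice labelled Fgf1 null and fed normal chow. The comparison rests on 4 of the 16 arrays of the study: 2 of liver RNA and 2 of eWAT RNA, chosen by their tissue, genotype and diet labels and normalized together with the other 12. The mice were 24 weeks old at sampling and had been on their diet for 16 weeks. The other groups of the study are liver and eWAT of wild-type mice on chow, of wild-type mice on a high-fat diet (HFD), and of Fgf1 null mice on HFD. The labels call the 2 arrays of a group technical replicates, so each tissue is represented here by 1 RNA sample, and they do not say whether 1 mouse or several gave that RNA. Nothing in the labels describes how the null allele was made.

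Liver and white fat divide the handling of fuel between them. Hepatocytes, the main cells of liver, make most plasma proteins, build lipoproteins and bile acids, release glucose, dispose of nitrogen as urea and detoxify foreign compounds. White fat cells take up fatty acids through lipoprotein lipase, store them as triglyceride in a single large lipid droplet, release them by lipolysis and secrete hormones such as leptin and adiponectin. FGF1, the protein encoded by Fgf1, is a secreted growth factor that binds FGF receptors.

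Of 25697 probes, 10971 and 10626 were detected on the 2 liver arrays (detection p under 0.05 against the negative controls of that array) and 14460 and 14586 on the 2 eWAT arrays. The median raw intensities were 108 and 111 in liver and 147 and 142 in eWAT. The comparison covered 10778 features, namely 9936 genes and 842 probes with no gene name, each detected on both arrays of at least 1 of the tissues. A gene that entered through 1 tissue only had little room to be called higher in the other. Values are log2 intensities after background correction and quantile normalization. Differences are liver minus eWAT (n = 2 arrays of 1 RNA sample in each tissue), and ± gives the standard error of array measurement from limma. Its median over all features was 0.171. The fit took in all arrays of the study, with 8 residual degrees of freedom before moderation, so ± pools array spread over the groups. For a single gene it can be larger or smaller than the spread of the arrays compared here would give. The ± says nothing about the spread between mice. A gene is called higher in a tissue when the array means lie at least 4-fold apart, a difference of 2 on the log2 scale. This call has no test behind it.

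Fgf1 itself gave 9.84 and 10.06 on the liver arrays and 9.75 and 9.35 on the eWAT arrays, a difference of 0.40 ± 0.16. Its brighter probe was thus well detected in both samples labelled null. Against wild-type on chow, at 10.77 in liver and 8.85 in eWAT, the sample labelled null was lower in liver but higher in eWAT, where the level goes against the label. A second, dimmer Fgf1 probe was lower in neither tissue, with 8.98 in the labelled null liver against 8.87 in wild-type and 6.72 against 5.68 in eWAT. Where this probe lies with respect to the deletion is not stated, so its level is no firm check of the genotype. Camk2b, a subunit of a calcium-dependent kinase that was named with earlier results of these arrays known, was detected on all 4 arrays, at 9.23 and 9.0 in liver and 8.55 and 8.82 in eWAT. In wild-type mice on chow its mean was 4.63 in liver, where neither array detected it, and 5.51 in eWAT, and in the labelled null samples on HFD it was 9.49 and 7.30. Genotype is therefore given below as labelled.

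The 2 tissues differed in a large share of their transcripts. In liver 827 of 10778 features (7.67%) were at least 4-fold higher, and in eWAT 1372 (12.7%). With genes that the dimmer tissue detected on neither array set to a lower bound, 806 and 1027 remained past 4-fold. By fitted difference, without the bound, 247 features were at least 32-fold higher in liver and 156 in eWAT. At 8-fold the order was the other way, with 489 higher in liver and 687 in eWAT. On both eWAT arrays and neither liver array 2334 features were detected, and 283 the other way round. The liver arrays were dimmer and had a higher detection floor (5.87 and 5.99, against 5.03 and 5.01 in eWAT), and the part of this in the counts was not tested. The median of all features was -0.20, which is the reference for the list medians below. Giving the arrays equal medians rather than equal quantiles moved that median to -0.63 and the counts to 630 higher in liver and 1858 higher in eWAT, so that the share of calls on the liver side went from 37.6% to 25.3%.

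**Figure D1:**
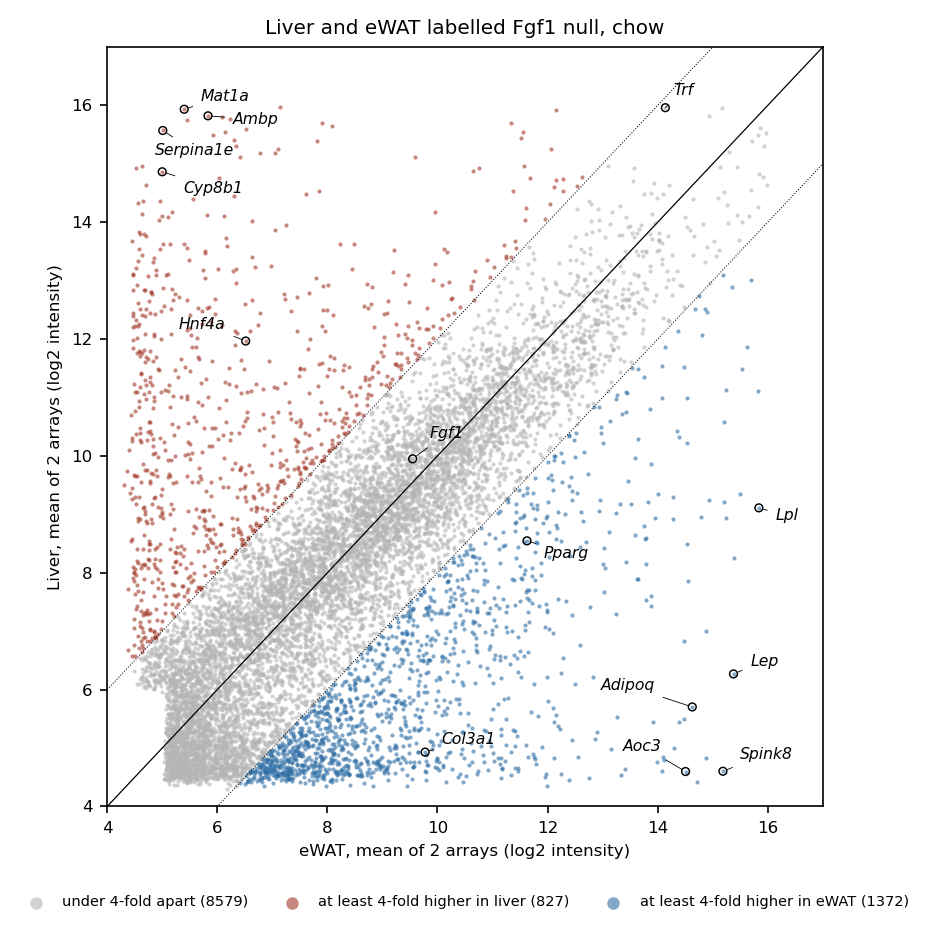
Mean log2 intensity of the 2 liver arrays (vertical axis) against that of the 2 eWAT arrays (horizontal axis) for all 10778 features; dotted lines mark 4-fold. The 827 liver-high features reach far to the upper left, where Serpina1e and Mat1a sit near the floor of eWAT, and Spink8, Aoc3 and Lep mark the opposite corner.

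Promoters of several liver-high genes are shown here because they hold letters of a site known from liver genes. Hepatocyte nuclear factor 1 (HNF1) and C/EBP proteins are DNA-binding factors known from liver genes, and C/EBP proteins also act in fat cell differentiation. The 250 bases before the start site were searched on both strands for GTTAATNAT, 9 letters of the HNF1 site, for TTGCNNAA, a C/EBP site, and for the TATA box TATAAA, in RefSeq promoters of GRCm38.p6. Of 8028 tested genes with a promoter there, 45 (0.561%) held the HNF1 letters. Among 606 promoters of genes called higher in liver 24 held them (3.96%), and among 966 of genes called higher in eWAT 2 did (0.207%), against 0.781% of all 27025 promoters. The C/EBP letters were in 13.7% of liver-high, 8.9% of eWAT-high and 8.05% of tested promoters, and the TATA box in 13%, 11.2% and 7.62%. A match describes letters in a window and no binding was measured.

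Of 177 promoters of genes at least 32-fold higher in liver, 9 held the HNF1 letters. The 6 with them closest to the start site are given as the 150 bases before it, 5′ to 3′ on the strand of the gene, with matches to HNF1 or C/EBP letters in capitals. Lep, the leptin gene, follows from the eWAT side, with C/EBP letters and no HNF1 letters. The HNF1 letters lie at -46 to -38 from the start in Fga, -54 to -46 in F13b, -77 to -69 in Hc, -59 to -51 in Gckr, -66 to -58 in Slco1b2 and -66 to -58 in Habp2. The windows are chr3:83026003-83026152 (plus strand) for Fga, chr1:139501557-139501706 (plus) for F13b, chr2:35061413-35061562 (minus) for Hc, chr5:31297413-31297562 (plus) for Gckr, chr6:141629368-141629517 (plus) for Slco1b2, chr19:56287762-56287911 (plus) for Habp2 and chr6:29060071-29060220 (plus) for Lep.
Fga: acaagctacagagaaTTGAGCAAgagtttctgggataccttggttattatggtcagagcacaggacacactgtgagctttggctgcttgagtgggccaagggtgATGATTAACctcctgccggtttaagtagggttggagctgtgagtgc
F13b: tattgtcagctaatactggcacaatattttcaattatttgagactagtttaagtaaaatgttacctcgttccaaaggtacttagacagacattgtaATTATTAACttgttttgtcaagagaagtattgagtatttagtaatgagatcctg
Hc: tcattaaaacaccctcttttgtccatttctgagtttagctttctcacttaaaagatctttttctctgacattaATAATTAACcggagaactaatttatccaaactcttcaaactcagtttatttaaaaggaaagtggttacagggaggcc
Gckr: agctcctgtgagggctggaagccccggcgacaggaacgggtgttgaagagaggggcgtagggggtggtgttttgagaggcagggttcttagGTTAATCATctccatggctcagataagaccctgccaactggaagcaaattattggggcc
Slco1b2: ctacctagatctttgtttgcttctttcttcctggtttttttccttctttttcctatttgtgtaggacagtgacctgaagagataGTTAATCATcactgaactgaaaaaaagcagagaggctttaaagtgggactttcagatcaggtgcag
Habp2: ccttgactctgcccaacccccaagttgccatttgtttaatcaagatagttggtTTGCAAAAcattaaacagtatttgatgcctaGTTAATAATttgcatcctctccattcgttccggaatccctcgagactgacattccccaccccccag
Lep: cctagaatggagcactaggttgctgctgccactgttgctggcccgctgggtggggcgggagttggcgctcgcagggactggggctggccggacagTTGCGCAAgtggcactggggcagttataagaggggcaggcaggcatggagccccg

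The genes with these promoters encode the fibrinogen alpha chain (Fga), the B subunit of clotting factor XIII (F13b), complement C5 (Hc), the regulator of glucokinase (Gckr), a hepatic uptake carrier for bile acids (Slco1b2) and a plasma protease (Habp2). Fga gave 15.76 and 15.52 in liver and 8.16 and 8.02 in eWAT, F13b at least 128-fold more in liver and Hc at least 108-fold more. The eWAT arrays of Gckr gave 4.79 and 5.07 against 10.07 and 9.91 in liver, and those of Slco1b2 4.73 and 5.02 against 11.67 and 11.71. In both genes 1 of the 2 eWAT arrays was above the detection threshold. All were taken from genes at least 32-fold higher in liver, so the gap between their liver and eWAT values follows from that choice.

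The largest liver differences were in secreted and metabolic proteins of hepatocytes. Serpina1e, an alpha-1-antitrypsin gene, gave 15.52 and 15.62 in liver and 4.95 and 5.07 in eWAT, a difference of 10.56 ± 0.10, with 1 of 2 eWAT arrays above the detection threshold. Mat1a, the liver form of methionine adenosyltransferase, gave 15.92 and 15.95 against 5.25 and 5.54 (10.54 ± 0.11), with 1 array near saturation. Cps1, which makes carbamoyl phosphate for the urea cycle, gave 14.61 and 14.67 against 4.75 and 4.64, below detection on both eWAT arrays and so at least 786-fold higher in liver. These genes were ranked by that difference, so the gap between their liver and eWAT arrays follows from the choice. Cyp4a14, a fatty acid hydroxylase, was at least 960-fold higher in liver, Mug1, a protease inhibitor of mouse plasma, at least 982-fold, and Cyp3a11, a drug-metabolizing cytochrome P450, at least 634-fold. Serpina1c, Ambp (the precursor of alpha-1-microglobulin), Cyp8b1 (which makes cholic acid) and Hpx (hemopexin, which binds heme) complete the first 10 by fitted difference, at 10.30 ± 0.12, 9.99 ± 0.13, 9.86 ± 0.14 and 9.72 ± 0.13. The Serpina1 genes are near-identical copies, and cross-hybridization between their probes was not tested.

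Plasma proteins and lipoproteins were nearly all on the liver side. Of 20 plasma protein genes measured 19 were at least 4-fold higher in liver and 0 in eWAT, with a median difference of 7.12. Alb (albumin) and Pzp were on the array but did not pass the detection filter in either tissue, so they are not among the 20. The exception was Trf (transferrin, the iron carrier), at 15.95 and 15.97 in liver and 14.24 and 14.04 in eWAT, a difference of 1.82 ± 0.12. Ttr (transthyretin, carrier of thyroid hormone) differed by 9.09 ± 0.14 and Ahsg (fetuin A) by 9.41 ± 0.10. All 13 apolipoprotein and lipoprotein assembly genes measured were called higher in liver (median 7.22). They ran from Apoa1, the main protein of high-density lipoprotein, at 15.44 and 15.54 against 5.77 and 6.08, down to Apoe, also made by macrophages, at 14.11 and 14.39 against 11.54 and 11.68. Apoc1 was also well above the floor in eWAT, at 11.32 and 11.34, while liver gave 15.68 and 15.71. The 4 major urinary protein genes measured, carriers of pheromones that mouse liver makes, were all called (median 8.59), with Mup21 at least 341-fold higher.

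Clotting factors were mostly higher in liver, and complement genes went both ways. Of 22 coagulation genes measured 19 were called higher in liver and 0 in eWAT (median 6.88). Plg (plasminogen) was at least 404-fold higher, Fgg (fibrinogen gamma chain) at least 269-fold and F2 (prothrombin) at least 171-fold. Pros1 (protein S) and Serping1 (the C1 inhibitor) were close in both tissues, at differences of 0.20 ± 0.13 and 0.42 ± 0.12, with 11.12 and 10.92 for Pros1 in eWAT. Of 18 complement genes 14 were higher in liver and 3 in eWAT (median 6.31). C9, a pore-forming component, was at least 331-fold higher in liver, and Mbl1 and Mbl2, lectins that start the cascade, at least 124-fold and at least 103-fold. The 3 on the eWAT side were the chains of C1q, which macrophages make: C1qb at -4.01 ± 0.13, C1qc at -3.71 ± 0.12 and C1qa at -2.18 ± 0.15.

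Transcription factors that set hepatocyte identity were higher in liver as well. Of 15 measured 13 were called in liver and 0 in eWAT, with a median of 4.77, or 4.52 with undetected genes at their bound. Hnf4a, a nuclear receptor that drives hepatocyte genes, gave 11.90 and 12.03 in liver and 6.39 and 6.64 in eWAT. Foxa3, a pioneer factor, was at least 166-fold higher, Nr1i3 (the xenobiotic receptor CAR) at least 73.6-fold and Onecut2 at least 47.3-fold. Nr1h4, the bile acid receptor FXR, differed by 6.16 ± 0.16. At the bound 12 stayed past 4-fold. The 2 not called were Hhex at 1.01 ± 0.14 and Cebpa at 0.79 ± 0.28. Cebpa acts in both hepatocytes and fat cells.

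Detoxification and bile acid genes were mostly higher in liver. Of 19 xenobiotic cytochromes P450 measured 17 were called higher in liver and 1 in eWAT, with a median of 7.8. Cyp2c37, Cyp2d10 and Cyp2a5 were at least 553-fold, 519-fold and 448-fold higher. The eWAT gene was Cyp1b1, a P450 of mesenchymal cells, at least 12.8-fold higher there. Cyp2e1, which oxidizes ethanol and acetone, was abundant in both tissues, at 15.60 and 15.48 in liver and 11.45 and 11.64 in eWAT. Of 22 conjugation enzymes 12 were higher in liver and 2 in eWAT (median 2.31): Ugt2b36, a glucuronosyltransferase, differed by 9.40 ± 0.18 with 1 eWAT array above detection, while Gstm2, a glutathione S-transferase, differed by -2.96 ± 0.11. Of 20 genes of bile acid synthesis and transport 17 were called in liver and 0 in eWAT (median 5.86). Cyp7a1, the rate-limiting enzyme of bile acid synthesis, was at least 110-fold higher and the bile salt export pump Abcb11 at least 32.4-fold.

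Genes of nitrogen disposal and glucose output were higher in liver. Of 28 genes of the urea cycle and amino acid breakdown 27 were called higher in liver and 0 in eWAT (median 4.87). The exception was Gldc of glycine cleavage, at 12.34 and 12.27 in liver and 12.24 and 12.22 in eWAT. Arg1 (arginase) differed by 6.87 ± 0.14, Ass1 (argininosuccinate synthase) by 6.82 ± 0.12 and Asl (argininosuccinate lyase) by 6.10 ± 0.21. Of 15 gluconeogenic and glycogen genes 12 were called in liver and 0 in eWAT (median 4.42). G6pc, which frees glucose from its phosphate, gave 13.20 and 13.16 against 5.30 and 6.19, and Fbp1 (fructose bisphosphatase) differed by 7.41 ± 0.25 with 1 eWAT array above detection. Pck1, which serves glucose synthesis in liver and glyceride synthesis in fat, differed by 4.56 ± 0.16. Pcx and Ppp1r3c, at 1.39 ± 0.14 and 0.93 ± 0.12, were not called.

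**Figure D2:**
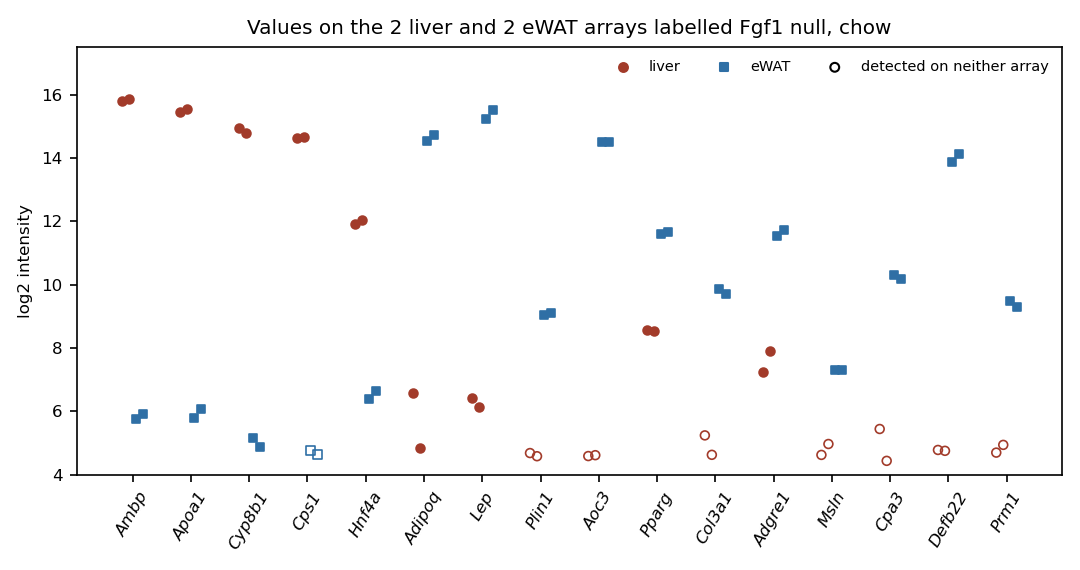
Log2 intensity on each of the 2 liver arrays (circles) and 2 eWAT arrays (squares) for 16 marker genes; open symbols mark a tissue in which neither array detected the gene. Ambp to Hnf4a are higher on both liver arrays and Adipoq to Prm1 on both eWAT arrays. The genes were chosen as examples of each side, so this gap is no separate result.

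The eWAT side opened with fat cell genes and epididymal genes. Lep gave 15.24 and 15.52 in eWAT and 6.40 and 6.13 in liver, a difference of -9.11 ± 0.27. Aoc3, an amine oxidase on the fat cell surface, gave 14.51 on both eWAT arrays and was detected on neither liver array, so it was at least 382-fold higher in eWAT. Adipoq (adiponectin) gave 14.55 and 14.71 against 6.58 and 4.82, with 1 liver array above the threshold. These 3 genes were named by the size of their difference, among all genes or within a list, so the gap between their arrays follows from the choice. Of the first 10 on this side by fitted difference, Spink8 was at least 612-fold higher, Cuzd1 at least 442-fold, and the beta-defensins Defb38, Defb37 and Defb22 at least 290-fold, 284-fold and 268-fold. Tmem45b was at least 288-fold higher, Gpnmb, a glycoprotein of lipid-laden macrophages, differed by -8.99 ± 0.35, and Wfdc15b, a protease inhibitor gene of the epididymis, by -8.93 ± 0.25. In the last pair 1 of 2 liver arrays was above detection.

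Fat cell lists were mixed. Of 12 adipokine genes 4 were called higher in eWAT (Lep, Adipoq, Retnla and Sfrp5) and 2 in liver, namely Rbp4 (retinol carrier, 4.98 ± 0.15) and Agt (angiotensinogen, 3.87 ± 0.14). Of 29 genes of fat cell differentiation and PPARG targets 13 were higher in eWAT, 11 of them also at the bound, and 6 in liver (median -1.28). Pparg, the master receptor of fat cell formation, gave 11.59 and 11.66 in eWAT and 8.57 and 8.53 in liver. Lpl, the lipoprotein lipase that frees fatty acids for uptake, gave 15.88 and 15.80 against 9.0 and 9.22 with both eWAT arrays near saturation, and Cav1, the main caveolin, 14.39 and 14.56 against 6.82 and 6.83. Adig, which promotes leptin secretion, was at least 37.7-fold higher in eWAT and Sncg at least 253-fold. Fabp4 and Cd36, of fatty acid carriage, were read by probes close to the floor in eWAT (5.22 and 5.12 for Fabp4, 5.62 on both arrays for Cd36) and undetected in liver, so no fold is given for them. Of 20 lipid droplet and lipolysis genes 8 were higher in eWAT, 6 of them also at the bound, and 4 in liver (median -1.42).

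No measured gene of oxidative phosphorylation or the ribosome was called at 4-fold. Some genes of fatty acid synthesis, fatty acid oxidation and cholesterol synthesis were called in liver. Over all features 7.67% were called in liver and 12.7% in eWAT. Of 16 genes of fatty acid synthesis 3 were called in liver and 0 in eWAT, with a median of 0.345, which turned to -0.031 with equal array medians. Scd1, the desaturase, gave 13.76 and 13.77 in liver and 14.64 and 14.69 in eWAT, a difference of -0.90 ± 0.11, and Acly, which makes acetyl-CoA from citrate, differed by -1.31 ± 0.11. Of 15 cholesterol synthesis genes 5 were higher in liver and 0 in eWAT (median 1.47). Of 20 genes of fatty acid oxidation 10 were called in liver and 1, Pdk4, in eWAT (median 1.92). Of 33 oxidative phosphorylation genes and 21 ribosomal protein genes 0 were called in either direction, at medians of 0.318 and -0.787. Only 1 of the 21 ribosomal genes lay on the liver side. In the tissue test described below, 8 of the 21 passed on the eWAT side and 0 on the liver side. The 33 oxidative phosphorylation genes gave 0 and 6. The shares of all features passing were 19.1% on the eWAT side and 14.8% on the liver side. The 3 ketogenesis genes measured included Bdh1, which makes 3-hydroxybutyrate, at 6.25 ± 0.12.

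Where a protein has a liver form and a fat form, the 2 tissues often used different genes. Of 25 such pairs 13 had both genes measured, and in 7 the liver form was at least 4-fold higher in liver while the fat form was at least 4-fold higher in eWAT by the fitted difference. Glucose transporters were one, with Slc2a2 (GLUT2) at 11.64 and 11.68 in liver and 5.36 and 5.31 in eWAT, and Slc2a4 (GLUT4, the insulin-responsive form) at 7.99 and 7.45 in eWAT and below detection in liver, at least 3.47-fold higher in eWAT. The lipid droplet proteins Cideb (11.79 and 11.51 in liver, 5.62 and 5.73 in eWAT) and Cidec (14.45 and 14.10 in eWAT, 9.21 and 9.37 in liver) crossed most widely. Pyruvate kinases did so too, with Pklr at least 4.88-fold higher in liver and Pkm at a liver minus eWAT difference of -4.42. Among glycerol channels Aqp9 differed by 2.14 and Aqp7 was at least 22.3-fold higher in eWAT, and among PPAR receptors Ppara was at least 9.33-fold higher in liver and Pparg differed by -3.08. Igfbp1, a binding protein of insulin-like growth factor, was at least 8.74-fold higher in liver and Igfbp5 differed by -4.15. Of the arginases, Arg1 differed by 6.87 and Arg2 was at least 3.92-fold higher in eWAT. With undetected genes at their bound 5 of the 7 pairs stayed opposed by 4-fold, since Arg2 and Slc2a4 fell under it. Exceptions were Gstp1, listed as the fat form of glutathione S-transferase but higher in liver by 3.18 ± 0.12, and Dgat2, listed as the liver form of the last step of triglyceride synthesis but higher in eWAT, at -2.08 ± 0.14. The list also named Hk2 (hexokinase 2) and Aldoa (aldolase A) as fat forms, at -4.81 and -2.19.

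**Figure D3:**
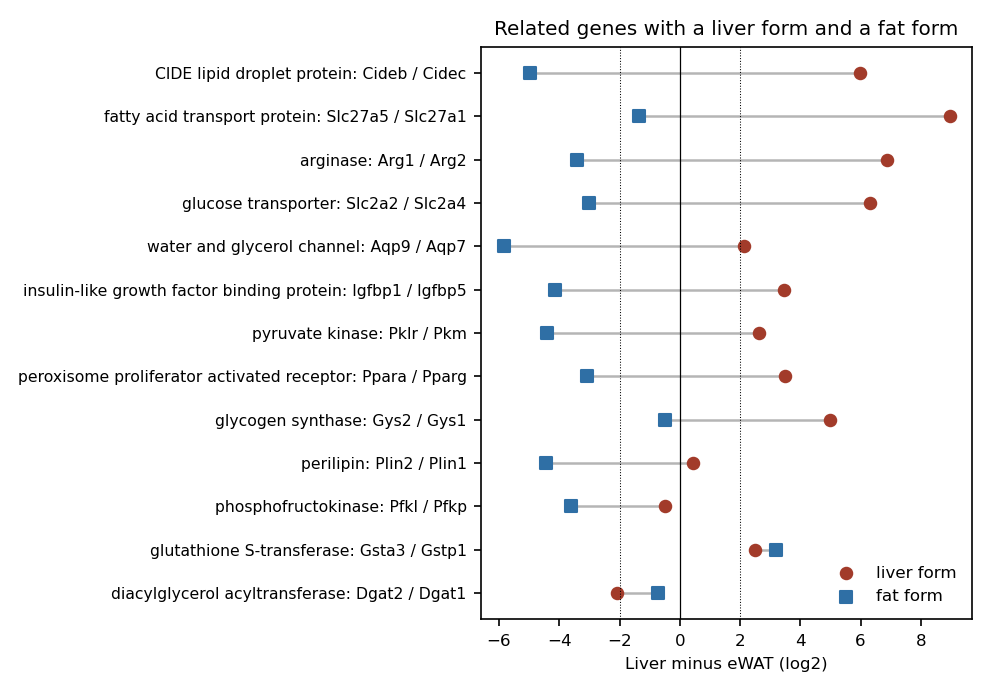
Liver minus eWAT difference (log2) of the liver form (circles) and the fat form (squares) of the 13 pairs with both genes measured; dotted lines mark 4-fold. In 7 pairs the circle lies right of the right line and the square left of the left line, while for glutathione S-transferase both genes lie on the liver side and for diacylglycerol acyltransferase both on the eWAT side. Genes undetected in the dimmer tissue are plotted at their fitted difference.

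Genes of stromal progenitors, matrix and smooth muscle were mostly on the eWAT side. Of 27 collagen and matrix genes 20 were called in eWAT and 0 in liver (median -4.63, or -4.02 with undetected genes at their bound). Sparc, a collagen-binding protein, gave 14.81 and 14.75 in eWAT and 9.08 and 8.84 in liver, and Col4a1, of basement membrane, 13.94 and 13.95 against 8.96 and 8.91. Col1a1 was at least 25.9-fold higher and the crosslinking enzyme Lox at least 21.6-fold. Col18a1 and Col14a1 lay on the liver side, at 1.64 ± 0.11 and 0.99 ± 0.22, and were not called. Of 21 genes of stromal progenitors 15 were called in eWAT (11 at the bound) and 0 in liver (median -2.64), with Fbln2 at least 46.4-fold higher and Pdgfra, a receptor of fat cell precursors, at -2.64 ± 0.13. Dpp4, listed as a progenitor marker, was instead higher in liver by 1.37 ± 0.14 and was not called. Of 11 smooth muscle genes 8 were called in eWAT (median -3.16), among them Acta2 at 14.47 and 14.64 against 7.68 and 8.03. Their summed eWAT signal was 43580 here, 89280 in wild-type chow, 33580 in labelled null HFD and 23240 in wild-type HFD. Whether vessels or attached tissue gave it was not tested. Of 11 mesothelial genes 5 were called, 3 of them also at the bound, with Upk3b at -4.35 ± 0.18 and Wt1 at least 11.1-fold higher.

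Macrophage transcripts were higher in the eWAT sample. Of 16 pan-macrophage genes 10 were called in eWAT and 0 in liver (median -2.73), and of 14 genes of lipid-associated macrophages 8 in eWAT and 1, Apoe, in liver (median -3.16). Adgre1 (F4/80, a macrophage surface receptor) gave 11.52 and 11.72 in eWAT and 7.23 and 7.92 in liver. Trem2, a lipid sensor, gave 12.22 and 12.08 against 5.97 and 5.14, and Lgals3 (galectin-3) 15.26 and 15.24 against 8.82 and 9.07. Genes of Kupffer cells, the resident macrophages of liver, went 2 to liver and 1 to eWAT of 9: Clec4f, the lectin that marks them in mice, was at least 26.8-fold higher in liver, while Vsig4 was near in both, at 10.16 and 10.20 against 9.51 and 9.53. In bulk tissue, fewer cells of a type and less RNA per cell cannot be told apart. Genes of liver endothelium and stellate cells gave 4 calls in liver and 1 in eWAT of 9, with Clec4g at 6.69 ± 0.14, while pan-endothelial genes gave 3 of 16 in eWAT. Over all features the share called in eWAT was 12.7%. In the tissue test described below, 10 of the 16 pan-endothelial genes passed on the eWAT side and 0 on the liver side. The shares of all features passing were 19.1% and 14.8%. Mast cell genes gave 4 of 7 in eWAT, led by Cpa3 at least 19.8-fold higher, and lymphocyte genes 4 of 11 by the fitted difference. Of these only Il7r, at -4.32 ± 0.23 with 1 liver array above detection, stayed past 4-fold at the bound, the lymphocyte median went from -1.60 to -0.73 at the bound, and 0 of the 11 passed the tissue test described below.

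Hox genes, which mark position along the body axis, were higher in eWAT. Of 36 Hox and positional homeobox genes on the array 22 passed the detection filter, and 14 of these were called in eWAT (10 at the bound) and 0 in liver (median -2.43, or -1.85 at the bound). All 22 were detected on both eWAT arrays and 4 on both liver arrays, so the filter left little room for a liver call. Hoxc6 gave 10.66 and 10.63 in eWAT and was undetected in liver, at least 26.3-fold higher. Hoxb7 was at least 25.7-fold, Hoxd8 at least 18.8-fold, Hoxc9 at least 7.13-fold and Hoxa5 at least 6.26-fold higher. Nr2f2, a nuclear receptor listed with them, was on the liver side at 0.70 ± 0.23 and not called. Among 13 FGF family genes Fgf10, a mesenchymal ligand, and Fgf13, an intracellular family member, were at least 18.1-fold and 39.8-fold higher in eWAT. Fgf21, a hormone of liver, was higher in liver by 2.90 ± 0.18, and its coreceptor Klb gave 8.57 and 8.58 in liver and 7.48 and 7.82 in eWAT.

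**Figure D4:**
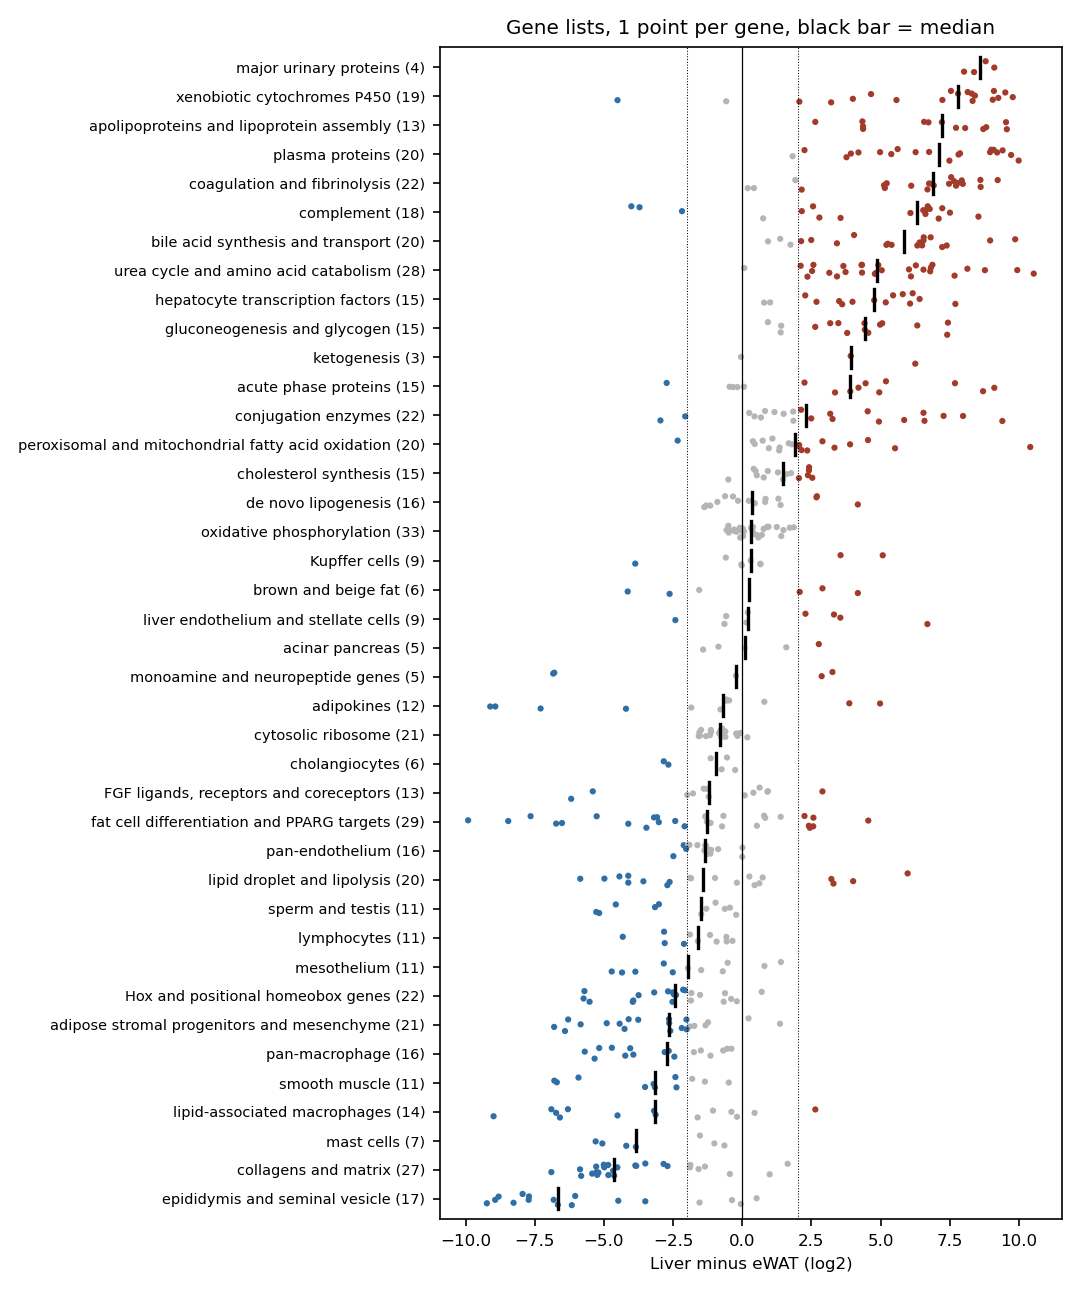
Liver minus eWAT difference (log2) of every measured gene of the 40 lists, 1 point per gene, ordered by the list median (black bar), with the number of measured genes in brackets. Red points are at least 4-fold higher in liver and blue points at least 4-fold higher in eWAT; list medians run from -6.67 for epididymis to 8.59 for major urinary proteins.

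Genes listed for epididymis and for sperm were part of the eWAT difference. Of 17 genes of epididymis and seminal vesicle measured 13 were at least 4-fold higher in eWAT and 0 in liver, with a median of -6.67, or -5.23 at the bound. All 17 were detected on both eWAT arrays and 0 on both liver arrays, so the filter left little room for a liver call. Defb22, a beta-defensin of the epididymis, gave 13.88 and 14.11 in eWAT and 4.78 and 4.75 in liver, and Defb42 was at least 113-fold higher. Their summed signal was 89520 in the eWAT sample and 621 in liver, on the linear scale of normalized intensity. In eWAT of the other groups it was 184700 (wild-type chow), 52090 (labelled null, HFD) and 761 (wild-type HFD). Lcn5, a defining epididymal marker, was not called, at -0.37 ± 0.33. Of 11 sperm and testis genes 5 were called in eWAT, 3 of them also at the bound, with Prm1 (protamine 1) at 9.49 and 9.28, at least 11-fold higher, and a summed signal of 3744 against 158000 in wild-type chow eWAT. These 11 genes also entered through eWAT, with 0 detected on both liver arrays. Of 27 acinar pancreas genes on the array 5 passed the detection filter, and 1, the amylase Amy2a5, was called, on the liver side. Whether attached tissue gave any of these transcripts, and what part it might have in the count of 1372, was not tested.

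Hepatocyte transcripts in the eWAT sample were low but uneven. Without Trf, which alone carried 18050 of the signal in eWAT, the other 19 plasma protein genes summed to 13490 in eWAT and 458000 in liver. In eWAT of the other groups their sum was 2037 (wild-type chow), 5418 (labelled null, HFD) and 147400 (wild-type HFD). The 13 apolipoprotein genes summed to 6320 in the eWAT sample and to 6724 in wild-type chow, 13930 in labelled null HFD and 92030 in wild-type HFD eWAT. Ambp, Apoa2 and Ttr had eWAT means of 5.83, 6.23 and 6.51 here and of 13.85, 15.00 and 14.77 in wild-type HFD eWAT. Serpina1b and Serpina1d stood out within the list, at 12.20 and 12.12 and at 11.69 and 11.34 in eWAT, while Serpina1a gave 5.27 and 5.70. Their differences were 3.77 ± 0.10, 3.93 ± 0.13 and 7.87 ± 0.16.

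Whether tissue differences held across RNA samples was tested with 4 liver minus eWAT differences, 1 for each genotype and diet. limma called 1592 features (14.8%) higher in liver and 2057 (19.1%) higher in eWAT at an adjusted p under 0.05 and a mean difference of at least 2-fold. Of the 827 liver calls in the null chow samples 786 passed this test, and of the 1372 eWAT calls 1160 did. The tested differences include the null chow pair, so the overlap is no independent support. All 20 plasma protein genes passed, with limma adjusted p = 0.0083 for Ambp and 0.00042 for Apcs of the acute phase list. Aoc3, Cav1, Adipoq and Lep passed on the eWAT side at limma adjusted p of 0.000302, 0.000302, 0.00035 and 0.00042. Of 16 pan-macrophage genes 5 passed on the eWAT side, and Adgre1 and Trem2 did not (limma adjusted p = 0.20 and 0.12), nor did C1qc and C1qa. Cyp4a14 did not pass either (limma adjusted p = 0.079), its differences being 9.82 (wild-type chow), -1.80 (wild-type HFD) and 3.73 (labelled null, HFD).

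Set beside the other 3 conditions, the large liver-high block recurred more often than the eWAT-high block. Of the 827 liver calls 476 (57.6%) were at least 4-fold the same way in all 4 conditions, and of the 1372 eWAT calls 414 (30.2%). A total of 81 and 276 reached 4-fold only in the null chow pair. At the same threshold 8.25% of features were liver-high and 12% eWAT-high in wild-type chow, 6.48% and 8.44% in wild-type mice on HFD, and 6.56% and 8.63% in null HFD. All features were kept by detection in the null chow samples, so genes detected only in other conditions are missing from these shares. The shares and the counts reached only in the null chow pair are therefore not on an equal footing. The test of the null chow difference against the mean of the other 3 called 0 features, with limma, at a smallest adjusted p of 0.999, while 345 features (3.2%) were under an unadjusted p of 0.05. The test has 2 residual degrees of freedom before moderation, and nothing is called particular to the null chow pair.

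Some list medians were nevertheless far apart in value between conditions. The pan-macrophage median was -2.73 in null chow and -0.64 on wild-type chow, -1.06 with wild-type HFD and -0.24 in null HFD. The list of lipid-associated macrophages gave -3.16 against -0.24, -1.16 and -0.40, and collagens and matrix -4.63 against -2.23, -3.38 and -2.30. Plasma proteins gave 7.12 against 7.49, 3.10 and 7.29, the low value being that of wild-type HFD, whose eWAT held the highest summed plasma protein signal of the 4 eWAT samples. Epididymal genes gave -6.67 against -7.24, -0.33 and -6.17. Each condition is 1 RNA sample a tissue, so these values carry no error between mice. Of the 10 genes with the smallest p in the test against the other conditions, Cyp2e1 differed by 4.0 against 0.59, 0.62 and -0.07, Krt23 by 4.51 against 1.65, 1.27 and 1.89, and the macrophage folate receptor Folr2 by -3.87 against -1.31, -1.50 and -1.76. The others were Cd53 (-3.51), Zranb3 (-3.42), Hk3 (-3.23), AI413582 (-2.90), A930018P22Rik (1.53), and Akr1b8 and Themis2, at least 13.5-fold and 2.45-fold higher in eWAT.

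**Figure D5:**
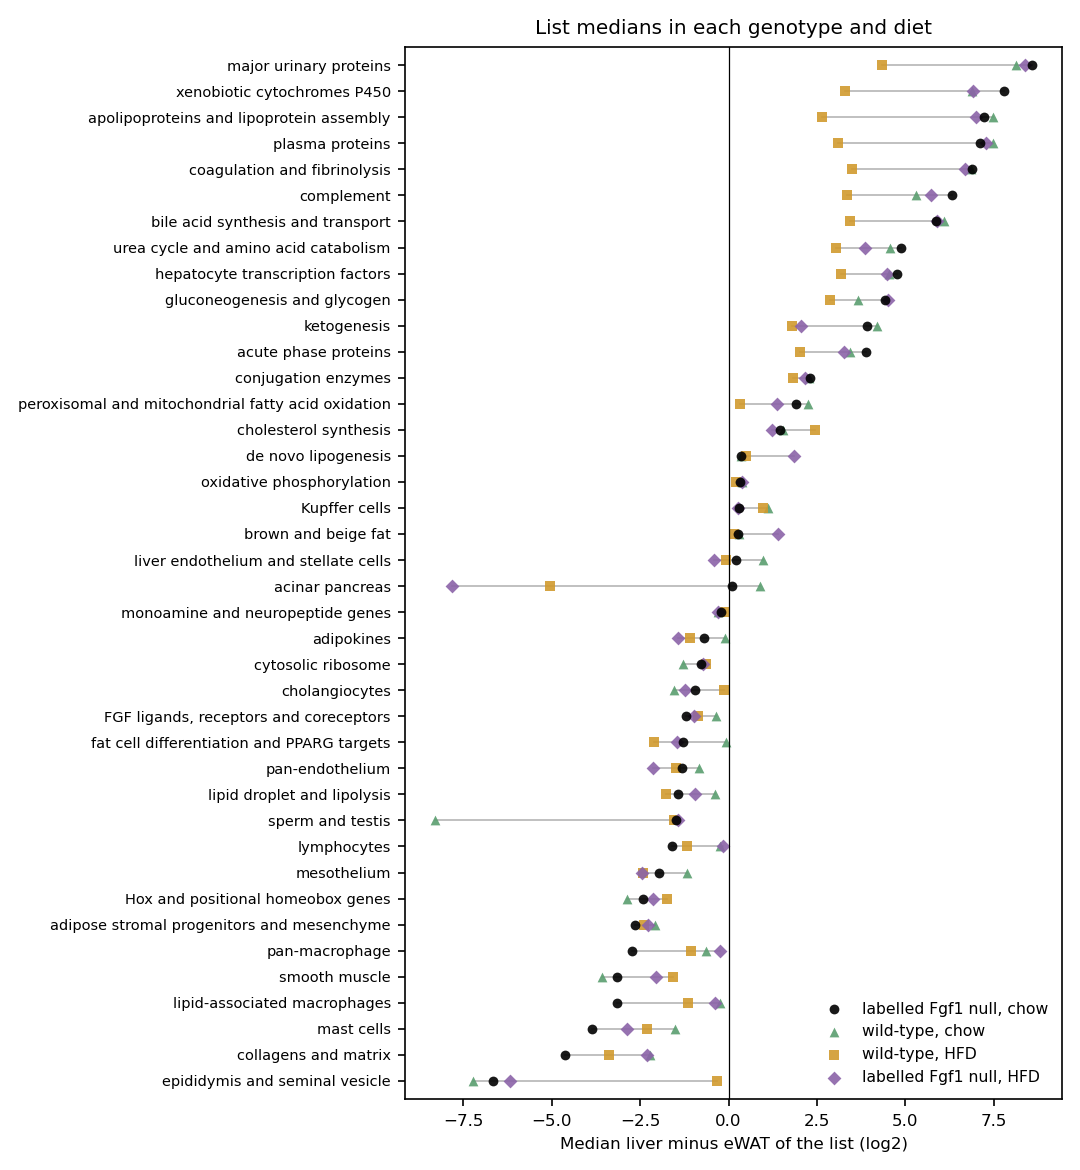
Median liver minus eWAT difference (log2) of each gene list in the 4 genotype and diet conditions, 1 marker per condition and each from 1 RNA sample a tissue. The plasma protein and apolipoprotein medians are smallest in wild-type HFD, and the macrophage lists lie furthest towards eWAT in the null chow pair.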

How the data were processed

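Total RNA was hybridized as biotin-labelled cRNA to 1-colour Illumina MouseRef-8 bead arrays, 2 for each of 8 groups. The authors deposited probe intensities that were not normalized, with a detection p-value per probe, and, per the submitters' processing notes, used GenomeStudio, whose version is not given in the sources used here. All 16 arrays were background-corrected with normexp, the background being inferred from the detection p-values, and quantile normalized together (neqc in limma 3.58.1, R 4.3.3, offset 16). Of 25697 probes 23978 carried a gene name in the platform annotation and 1719 did not. Kept were 14254 probes that passed detection (p under 0.05) in both null chow liver arrays or both null chow eWAT arrays, and the brightest probe stood for each gene, giving 10778 features. A gene detected on neither array of the dimmer tissue has a lower bound, "at least N-fold", against the lowest normalized signal among detected probes of each array, or its own signal where higher. List and pair counts at these bounds, and the plasma protein sum without Trf (from array means), were added after the values were seen.

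The 2 arrays of a group are technical replicates. The limma standard error came from a single fit to all arrays of the study. It pools array spread over the groups and covers array error only, and the number of arrays limits precision. The tissue test fitted limma to 4 liver minus eWAT differences, 1 per genotype and diet, and a second fit set the null chow difference against the other 3. Adjusted p-values are Benjamini-Hochberg over all features. Both were also run on simulated data with planted differences and independent noise. Such data lack the genotype and diet effects held in the real differences, so they do not show what the tests can detect here.

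The gene lists (40, with 594 of 804 genes tested) and the rules were chosen with earlier results of these data known. Named are the 10 largest differences each way, up to 4 each way per list with the members a list is named for, the paired genes, the 10 smallest p against the other conditions, Fgf1 and Camk2b. Other list members named, chosen after their values were seen, serve as exceptions or examples. Array numbers did not pair tissues (correlation of deviations -0.0325).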

Additional observations from a re-analysis of the deposited data

Results flagged for a closer look

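By fitted difference 11 genes were at least 4-fold apart in the null chow samples and at least 4-fold apart in the opposite direction in another condition. With undetected genes at their lower bound 4 of them fell under 4-fold in null chow: Cidea (2.46-fold), Ccl3 (2.29-fold), Wfdc12 (3.03-fold) and Atp4a (3.07-fold). Ccl4 and Sirpb1a were also undetected in null chow liver and were at least 6.79-fold and 4.54-fold higher in eWAT. None of these differences was tested, and each value comes from 1 RNA sample a tissue. Against labelled null mice on HFD, the chemokines Ccl3 and Ccl4 gave liver minus eWAT differences of -2.44 and -3.86 on chow and 2.01 and 2.91 on HFD. S100a8, a neutrophil protein, went from -2.71 to 2.58, Sirpb1a from -2.93 to 2.30 and the red cell anion exchanger Slc4a1 from -2.03 to 2.02. Cidea, a lipid droplet protein, gave a fitted -2.63 on chow and 5.64 on HFD. On the liver side, the metallothionein Mt2 gave 2.88 on chow and -2.36 on HFD, and the amylase Amy2a5 2.77 and -7.82. Wild-type chow opposed the null chow pair for Cabyr, a sperm protein (2.10 against -5.55 in wild-type), and for Wfdc12 (-2.28 against 2.05). In wild-type HFD the stomach proton pump subunit Atp4a gave 2.56, against -2.25 in null chow.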

How the results depend on the processing

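Without background correction 539 genes were at least 4-fold higher in liver and 625 in eWAT, and the tissue test called 1005 and 1173. With the authors' normalized values the counts were 518 and 639, and 1019 and 1296. A 2-fold threshold gave 1897 and 2884 and an 8-fold threshold 489 and 687. The liver share of 4-fold calls was 46.3% without background correction and 44.8% with the authors' values. Leaving out replicate 1 or 2 gave 841 to 868 liver and 1370 to 1404 eWAT calls. Leaving out 1 condition gave 1320 to 1539 and 1450 to 1948 calls in the tissue test. The limma fit to arrays, at an adjusted p under 0.05 and 2-fold, counts technical replicates as separate samples. Its calls describe array precision only and are no test across RNA samples. The array fit called 1891 and 2877 genes, and 1890 and 2878 with the replicate block. Array numbers share only a number here, with same-number correlations from -0.062 to 0.0658. The other alternatives kept these counts within 1.5 times, the test against the other conditions called 0 under every alternative run, and 0 values of named genes past the threshold reversed. List counts have no sign, so they could only stay or move and were not checked for reversal. Size depended more on the setting: 902 of 1799 named gene values and 45 of 640 list values moved, and of 191 called named genes 159 stayed past 4-fold without background correction and 159 with the authors' values. The Hox median went from -2.43 to -1.06 and the lymphocyte median from -1.60 to -0.60 without background correction. The cause of the moved counts was not tested. Of the 1372 eWAT calls 733 were detected on neither liver array, and signal near the floor limits their size.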

Other observations

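Of 15 acute phase genes 10 were at least 4-fold higher in liver and 1 in eWAT, with a median of 3.90. Of 6 genes of bile duct cells 2, Cldn4 and Krt19, were 4-fold higher in eWAT by fitted difference and 0 were at the bound, where the median went from -0.94 to -0.275. Brown and beige fat genes on the array numbered 11, of which 6 passed the detection filter. Ucp1, Dio2, Prdm16, Zic1 and Tmem26 did not pass it. The 6 gave 3 calls in liver and 2 in eWAT, 1 of the 2 also at the bound. The shares called over all features were 7.67% and 12.7%. The sign of the list median depends on the scaling (0.259, or -0.483 with equal array medians). Of 5 monoamine and neuropeptide genes measured, 2 were called in each tissue. On the eWAT side, Tph2, the tryptophan hydroxylase of neurons, was at least 55.9-fold higher and the neuropeptide gene Npy at least 52.8-fold. In the other conditions Tph2 differed by -0.47 (wild-type chow), -4.80 (wild-type HFD) and -0.31 (labelled null, HFD).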
